A study of Mus musculus with 20 samples.

Results

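The first 9 h of Gata4 induction were compared with the uninduced start on 4 of the 20 scRNA-seq libraries of the series, the ES duplicates and the 9h duplicates of the conversion of mouse ES cells to iXEN cells. The members were chosen by title and were the 2 libraries of ES cells at 0 h and the 2 at 9 h, with UMIs (counts of single RNA molecules) summed per library over cells with at least 500 detected genes. This gave 26254 cells of the 113288 that the same minimum leaves over the series, 7669 and 9246 in the ES duplicates and 4288 and 5051 in the 9h duplicates.

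Both groups came from 1 ES line, iGata4-Gata6-Venus ES, with the genotype Col1A1 TetO-Gata4/+; R26 M2rtTA/+; Gata6 H2B-Venus/+. Gata4, fused to mCherry, is expressed from the Col1A1 locus once doxycycline activates the transactivator M2rtTA, and 1 Gata6 allele of every cell, induced or not, carries a nuclear Venus reporter. ES cells were kept in serum/LIF medium without doxycycline and were not sorted. The 9h cells were in the same kind of medium with doxycycline, and were then sorted on lineage markers and pooled again from the sorted fractions in set proportions. Shares of cells at 9h are therefore those of the pool. For a gene that marked the fractions or differed between them, level in the culture and make-up of the pool cannot be told apart. The labels do not name the markers used for the sort. Gata6 (through its reporter) and Pdgfra are lineage markers in this line, so the limit may hold for their folds and cell shares below. It may also hold for any other gene below, since which genes differed between the fractions was not tested. The duplicates are technical, so the spread between them and every p-value below leave out variation between cultures.

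Gata4 and Gata6 are zinc finger transcription factors of the primitive endoderm, the layer of the blastocyst that forms beside the pluripotent epiblast and gives rise to the extraembryonic endoderm. In ES cells, forced expression of either factor starts this programme and closes down the network around Pou5f1 (Oct4), Sox2 and Nanog. FGF4 from the epiblast, read through ERK, favours endoderm in the blastocyst, while Nodal and its inhibitors Lefty1 and Lefty2 act in the epiblast.

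The libraries held between 110604591 and 138204184 UMIs, with a median of 13140 and 13154 UMIs per ES cell and of 24933 and 19518 per 9h cell. Between 36 and 87 cell barcodes were shared by any 2 of the 4 libraries, at most 1.54% of the smaller library. ES replicate 1 stood apart by 158 cells (2.06%) that were low in pluripotency markers, against 17 in ES replicate 2, 1 in 9h replicate 1 and 0 in 9h replicate 2. All ES libraries were of run 1 and all 9h libraries of run 3, as the sequencing project numbers give it, so run and induction cannot be told apart. In bulk sums, fewer cells that express a gene and less RNA per cell cannot be told apart either.

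Against ES, 464 genes were higher and 627 lower at 9h out of 15723 tested, or 1091 called genes (6.94% of those tested, 2.95% higher and 3.99% lower). A gene was called at an adjusted p under 0.05 in edgeR's quasi-likelihood test (Benjamini-Hochberg over all tested genes) with a change of 1 or more on the log2 scale in either direction. The fit held the 10 libraries of the conversion (ES, 9h, 24h, 48h and iXEN). Levels are CPM, UMIs scaled to a common library size with the TMM factors. Most of the called genes were scarce: 717 had fewer than 10 CPM in both groups, and 113 reached 50 CPM in 1 of them. The median log2 fold change of all tested genes was -0.03, which the TMM scaling holds near 0. Of the called genes, 85 (7.79%) had levels that move with run, that is, they set the 4 run 3 libraries apart from the other 16, set the run 1 libraries apart, or shifted in the direction of their change from the run 2 to the run 3 duplicate at both 24h and 48h, by a mean of at least 0.5 of the fitted log2 fold change. The share among all tested genes was 22.4%, which cannot be set against that of the called genes, since the size of shift asked for grows with the fold. For an uncalled gene with a fold near 0, a small shift is enough to meet the measure. By this measure 1006 called genes (439 higher, 567 lower) did not move with run. No condition had libraries of both run 1 and run 3, so a shift between the runs of ES and 9h was not measured. Setting the run 1 libraries apart was met by 2 tested genes and 0 called genes. Not moving with run therefore does not show that a change is free of run. Shifts of any size in the direction of the change at both times were found in 510 called genes (46.7%) and in 39.1% of all tested genes, so not moving with run is meant below only in the first sense.

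**Figure D1:**
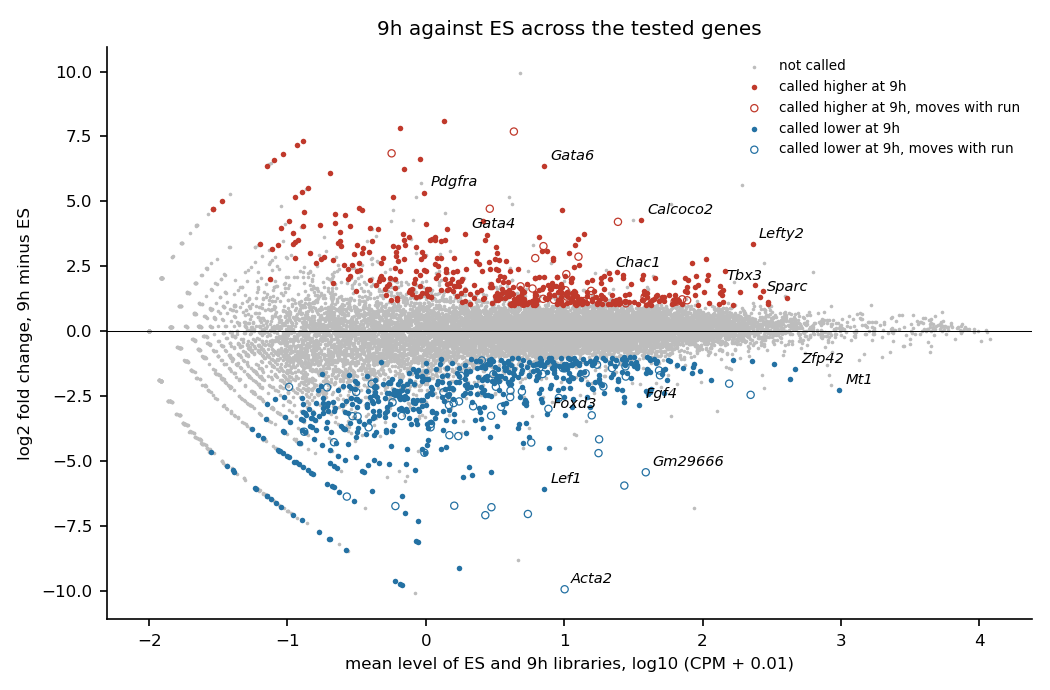
Log2 fold change (9h minus ES, vertical axis) of each tested gene against its mean level in the 4 libraries (horizontal axis, log10 of CPM plus 0.01). Red and blue points are the 464 genes called higher and the 627 called lower, open circles are called genes that move with run, and grey points were not called. Gata6, Pdgfra and Gata4 lie among the highest folds at low levels, while Acta2 and Gm29666, both with open circles, lie among the lowest.

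The number of calls depended on the libraries in the fit. It was 102 without ES replicate 1, 258 without ES replicate 2, 30 without 9h replicate 1 and 72 without 9h replicate 2, each of which leaves 1 library on that side and assumes that it varies like the other groups. The direction held for 1087 to 1089 of the 1091 genes in these fits, and the remaining 2 to 4 did not pass the filter. With a term for run 3, which only the 24h and 48h duplicates estimate, 156 genes were called, 93 higher and 63 lower. In total 29 genes (23 higher and 6 lower) were called under each of the 14 alternatives tried, and those genes included Gata6, Pdgfra, Tbx3, Calcoco2, Shkbp1 and Cldn6.

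Part of the endoderm transcription factors rose. Of 20 listed members, all 20 passed the filter, 6 were called higher (among them Gata6, Gata4, Sox17, Foxq1 and Runx1) and 1 lower (Prdm1), and 13 were not called. Over all tested genes, 2.95% were called higher and 3.99% lower. The median log2 fold change of the list was 0.67, against -0.03 for all genes, and none of the 7 called members moved with run or had a shift of any size in its direction at both 24h and 48h. Without ES replicate 1, ES replicate 2, 9h replicate 1 and 9h replicate 2, the number called higher was 3, 2, 1 and 2, and Gata6 was among them each time. With the term for run 3 it was 1, again Gata6.

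Gata4 (chr14:63198922-63271692, minus strand, GRCm38) is the induced factor, and its level was 0.382 and 0.157 CPM in the ES duplicates and 3.90 and 3.18 CPM at 9h. Both 9h libraries lay well above both ES libraries, with a log2 fold change of 3.73 (SE 0.52, adjusted p = 0.00672). These levels rested on 63 UMIs in ES and 755 UMIs at 9h over both duplicates, and transcripts of the transgene and of the endogenous gene cannot be told apart in these counts. Gata6 (chr18:11052064-11085635, plus strand), the endoderm factor whose other allele carries the Venus reporter, was at 0.218 and 0.127 CPM in ES and 14.3 and 14.0 CPM at 9h. Its log2 fold change was 6.36 (SE 0.64, adjusted p = 0.00253), the highest of the list, from 41 UMIs in ES and 3007 at 9h.

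Sox17, which acts in early endoderm, was at 0.0364 and 0.180 CPM in ES and 1.38 and 1.40 CPM at 9h (3.61, adjusted p = 0.0449). The forkhead factor Foxq1 was at 0.291 and 0.150 CPM and then 2.93 and 2.11 CPM (3.53, adjusted p = 0.0138). In each of these genes the groups did not overlap, as in 37.3% of all tested genes with 9h higher and 38.8% with 9h lower. Runx1, best known as a blood regulator, had ES duplicates of 3.49 and 0.606 CPM, further apart than the 9h duplicates at 14.5 CPM each (2.83, adjusted p = 0.0285). Prdm1, a repressor that acts in germ cells and early endoderm, fell from 1.14 and 2.13 CPM to 0.218 and 0.225 CPM (log2 fold change -2.87, adjusted p = 0.0113).

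Other factors of the endoderm list were not called at 9h. Sox7, a factor of parietal endoderm, was at 2.08 and 4.54 CPM in ES and 6.37 and 5.90 CPM at 9h (log2 fold change 0.89, adjusted p = 0.159). Foxa2, a pioneer factor of endoderm, was at 0.0545 and 0.0225 CPM and then 0.382 and 0.264 CPM (adjusted p = 0.145), from 9 UMIs in ES and 69 at 9h. Eomes had a log2 fold change of -1.72 (adjusted p = 0.0625). Of 13 products of later endoderm, 4 had a log2 fold change above 0 and 8 below. Where 2.95% of all tested genes were called higher and 3.99% lower, of these 13 genes 0 were called higher and 2 lower. These were the tight junction gene Cldn6 (34.5 and 30.5 CPM in ES, 6.12 and 6.25 CPM in the induced cells, with a log2 fold change of -2.39 at an adjusted p of 0.00186) and the protease inhibitor Spink1 (-1.86, adjusted p = 0.0229). Cldn6 alone kept its call without each single ES or 9h library, with the term for run 3 and with all 20 libraries. Ttr, a carrier protein of visceral endoderm, had a UMI in 0 cells of 3 of the 4 libraries.

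Receptors, matrix and secreted proteins of the endoderm showed a similar picture. Among 25 listed genes, all tested, 6 were called higher (Pdgfra, Amn, Lama1, Serpinh1, Car4 and Sparc), 2 were called lower (Fst and Lrp2) and 17 were not called, with a median log2 fold change of 0.63. The shares over all tested genes were 2.95% higher and 3.99% lower. None of the 8 called members moved with run, but Sparc (shifts of 0.38 at 24h and 0.90 at 48h on the log2 scale) and Serpinh1 (0.07 and 0.86) were higher in the run 3 library at both times. Leaving out ES replicate 1, ES replicate 2, 9h replicate 1 and 9h replicate 2 left 3, 1, 1 and 1 members called higher, and the term for run 3 left 2, Pdgfra and Car4.

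Pdgfra (chr5:75152292-75198215, plus strand), the receptor used as a surface marker of primitive endoderm, was at 0.0545 and 0.0374 CPM in ES and 1.76 and 2.01 CPM at 9h. This is a log2 fold change of 5.33 (SE 0.46, adjusted p = 0.00186), in a gene that was still scarce at 9h. Lama1, a chain of the basement membrane laminin, rose from 6.36 and 8.25 CPM to 32.9 and 30.3 CPM (2.11, SE 0.35, adjusted p = 0.0120). Serpinh1, the collagen chaperone Hsp47, was at 39.5 and 18.4 CPM in ES and 120.8 and 118.6 CPM at 9h (2.05, SE 0.37, adjusted p = 0.0142). Sparc, an abundant matrix glycoprotein of parietal endoderm, rose from 153.7 and 147.7 CPM to 383.1 and 360.0 CPM (1.30, SE 0.27, adjusted p = 0.0208). The remaining matrix genes moved less: Col4a1 was at 12.1 and 4.04 CPM in ES and 13.8 and 12.5 CPM at 9h (0.70, adjusted p = 0.363), and Lamc1 had a log2 fold change of 0.63 (adjusted p = 0.124). Serpinh1 was also the only member called among 17 tested genes of collagen folding and crosslinking.

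Amn, which carries the endocytic receptor of absorptive endoderm to the surface, had a log2 fold change of 2.79 (adjusted p = 0.0238), while Lrp2, an endocytic receptor of the same membrane, fell by 1.31 on the log2 scale (adjusted p = 0.0159). The activin antagonist Fst fell by 2.72 (adjusted p = 0.0285). The keratin Krt18 was not called (log2 fold change -1.99, adjusted p = 0.0646), and its ES duplicates stood at 79.6 and 20.1 CPM.

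**Figure D2:**
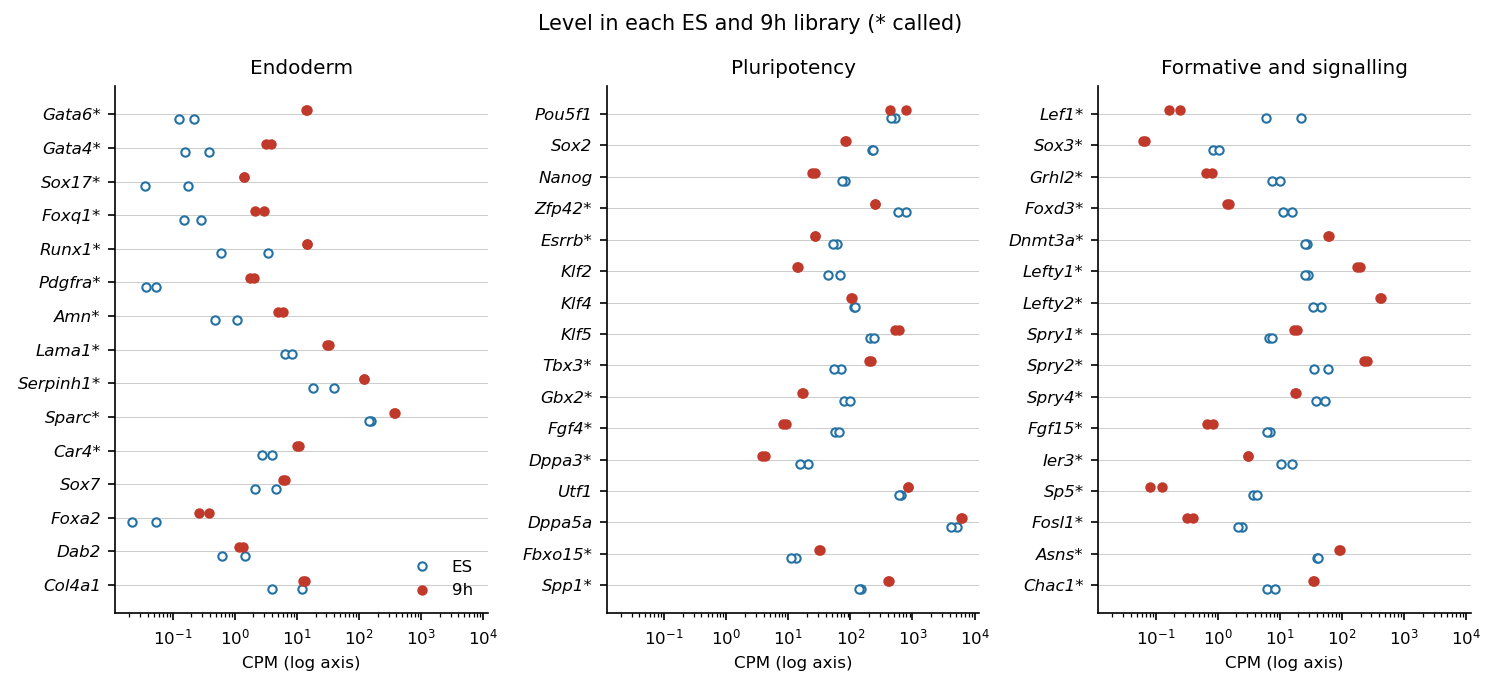
Level of selected genes in each ES (open blue) and 9h (red) library, in CPM on a log axis, with an asterisk at genes that were called. Each gene has 2 points per group, 1 per duplicate. Gata6 and Pdgfra show the widest gaps in the left panel, Pou5f1 is the gene of the middle panel whose 9h duplicates stand furthest apart (431.3 and 783.6 CPM), and Lef1 shows the widest gap in the right panel.

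Endoderm RNA was then counted by cells. Each cell was thinned to 2000 UMIs so that depth was equal, which left out 72 to 183 shallower cells per library. After thinning, Gata6 was found in 2.97% (95% exact binomial interval 2.48 to 3.53) and 2.35% (1.95 to 2.81) of the 9h cells, and in 0.0668% (0.0217 to 0.156) and 0% of the ES cells. At 3 counts, the 0 of 9087 cells in ES replicate 2 allows up to 0.0330% of cells with a UMI at this thinned depth, and the exact interval reaches 0.0406%. Without thinning, the shares were 24.9% and 20.99% at 9h and 0.313% and 0.184% in ES. Such intervals cover counting error only. Pdgfra was found in 0.356% and 0.321% of thinned 9h cells. Serpinh1 was found in 18.4% and 19.1% of thinned 9h cells, more than in either ES library, and without thinning in 84.1% and 79.1% of the 9h cells and 18.3% and 18.6% of the ES cells. Ttr, which ES cells should lack, was found in at most 0.0110% of thinned cells of any of the 4 libraries, but with no cells that make it, this gives no measure of free RNA, and the part of free RNA in the shares of other genes was not tested. Gata6 and Pou5f1 together were found in 1.69% and 1.71% of thinned 9h cells, and in 24.8% and 20.9% without thinning. In ES the unthinned joint shares were 0.274% and 0.184%. Pou5f1 alone was found in 98.6% and 99.4% of unthinned 9h cells, so the joint shares there are close to those of Gata6 alone. Whether the joint shares differ from what the separate shares give was not tested.

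**Figure D3:**
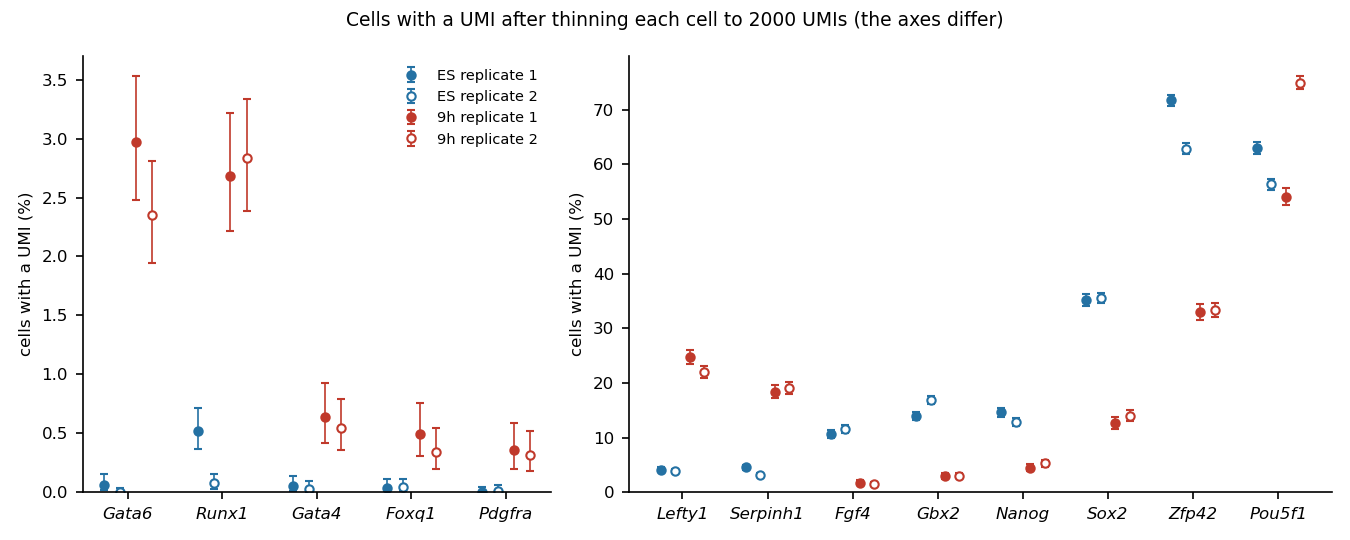
Share of cells with at least 1 UMI of each gene (vertical axis, percent) after thinning each cell to 2000 UMIs, per library, with exact 95% binomial intervals for counting error. The left panel has the endoderm genes, with Gata6 at 2.97% and 2.35% at 9h, and the right panel has signalling and pluripotency genes on another scale, with Lefty1 at 24.8% and 22.0% at 9h against 4.15% and 3.86% in ES.

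Pluripotency genes split. Of 14 naive pluripotency factors, all tested, 1 was called higher (Tbx3), 3 lower (Gbx2, Zfp42 and Esrrb) and 10 were not called, with a median log2 fold change of -0.25. Of 18 general pluripotency genes, 2 were called higher (Spp1 and Fbxo15), 2 lower (Fgf4 and Dppa3) and 14 were not called, with a median of 0.20. None of these 8 genes moved with run, but Spp1, Fbxo15 and Esrrb had smaller shifts in the direction of their change at both 24h and 48h. Leaving out ES replicate 1, ES replicate 2, 9h replicate 1 and 9h replicate 2 left 0, 1, 0 and 0 of the 3 naive factors called lower, and with the term for run 3 it was 0. With only the 4 libraries in the fit it was 6, and with all 20 it was 1. Of the 2 general genes called lower, the same leave-outs left 1, 1, 0 and 1, and the term for run 3, all 20 libraries and no filter on low counts left 1 each, while the fit of 4 libraries called 5.

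Tbx3, a T-box factor that supports naive pluripotency and also acts in extraembryonic endoderm, rose from 69.3 and 54.9 CPM to 200.8 and 211.0 CPM (log2 fold change 1.73, SE 0.19, adjusted p = 0.00322). Zfp42 (Rex1), a marker of naive ES cells, fell from 781.5 and 581.6 CPM to 244.5 and 244.7 CPM (-1.48, SE 0.22, adjusted p = 0.00785). The homeobox gene Gbx2 was at 80.2 and 97.1 CPM in ES and 16.6 and 17.1 CPM at 9h (-2.39, SE 0.45, adjusted p = 0.0163). In all of these the groups were far apart relative to the duplicates. Esrrb, an orphan nuclear receptor of the naive network, fell by 1.10 on the log2 scale (adjusted p = 0.0140). Dppa3 (Stella), a maternal factor also found in naive cells, was at 20.7 and 15.6 CPM and then 3.74 and 4.22 CPM (-2.19, adjusted p = 0.00407).

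The core factors were not called. Pou5f1 was at 527.6 and 446.5 CPM in ES and 431.3 and 783.6 CPM at 9h (log2 fold change 0.32, SE 0.50, adjusted p = 0.714), and without 9h replicate 2 the sign turned (-0.17). This was the widest gap between the 9h duplicates: of 2383 genes with at least 50 CPM at 9h, 5 differed by more than 0.5 on the log2(CPM + 1) scale, and Pou5f1 differed most. Among thinned cells, 54.1% and 75.0% of the 9h cells had a Pou5f1 UMI. Sox2 was at 223.9 and 228.8 CPM in ES and 82.2 and 85.8 CPM at 9h, a wide gap between tight duplicates, but with a log2 fold change of -1.43 (SE 0.73) its adjusted p was 0.235. With only the 4 libraries in the fit, Sox2 was called (-1.44, adjusted p = 6.05e-04). Of the libraries that enter only the larger fit, Sox2 was at 58.2 and 69.7 CPM at 24h and 39.0 and 16.8 CPM at 48h. In the iXEN duplicates it was at 4.14 and 0.363 CPM. The part of these libraries in the loss of the call was not tested. Nanog was at 80.9 and 73.3 CPM and then 24.5 and 27.2 CPM (-1.58, adjusted p = 0.171), and moved with run. Klf4, which moved with run, had a log2 fold change of -0.14 (adjusted p = 0.804), and with the term for run 3 its sign turned (0.49, adjusted p = 0.528). Klf5 was at 206.7 and 236.3 CPM in ES and 602.6 and 525.9 CPM at 9h (1.35, adjusted p = 0.100).

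Some genes of the formative and primed epiblast, the states that ES cells enter on leaving naive pluripotency, fell. Of 16 tested members, 13 had a log2 fold change below 0, with a median of -2.43, the furthest from that of all genes among the 26 lists. Called lower were 4 (Lef1, Sox3, Grhl2 and Foxd3), where 3.99% of all tested genes were. Called higher was 1 (Dnmt3a), where 2.95% of all tested genes were, and 11 members were not called. None of these 5 moved with run, though Foxd3, Grhl2 and Sox3 had smaller shifts in the direction of their change at both 24h and 48h. The Wnt effector Lef1 was at 5.95 and 22.4 CPM in ES and 0.246 and 0.166 CPM at 9h (-6.09, SE 1.19, adjusted p = 0.0183). The forkhead factor Foxd3 fell from 11.2 and 15.7 CPM to 1.51 and 1.43 CPM (-3.20, SE 0.40, adjusted p = 0.00476). Grhl2, which opens epithelial enhancers in formative cells, fell from 7.55 and 9.93 CPM to 0.655 and 0.801 CPM (-3.58, adjusted p = 0.00482). Both were still called with either ES library left out, but 0 members were called lower without 9h replicate 1, without 9h replicate 2 or with the term for run 3. With only the 4 libraries in the fit 10 members were called lower, Otx2 and Fgf5 among them, and with DESeq2 7 were. In the fit of 10 libraries, Otx2, at 9.86 and 11.4 CPM in ES and 1.06 and 1.11 CPM at 9h, was not called (-3.28, adjusted p = 0.0719), nor was Fgf5 (adjusted p = 0.0919). The de novo methyltransferase Dnmt3a went the other way, from 27.1 and 25.7 CPM to 59.2 and 61.3 CPM (1.19, adjusted p = 0.0169).

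The FGF pathway changed at some ligands and feedback inhibitors. Over all tested genes, 2.95% were called higher and 3.99% lower, and the counts below were not tested against these shares. Of 25 tested members, 21 had a log2 fold change below 0 (median -0.37), 4 were called lower (Fgf15, Fgf4, Ier3 and Spry4) and 2 higher (Spry2 and Spry1). None of these moved with run, though Fgf15 and Spry4 had smaller shifts in the direction of their change at both 24h and 48h. Fgf4, the ligand that ES cells make themselves, was at 57.0 and 65.3 CPM in ES and 9.03 and 8.13 CPM at 9h (-2.83, SE 0.61, adjusted p = 0.0245). After thinning, 10.7% and 11.6% of ES cells and 1.78% and 1.49% of 9h cells had an Fgf4 UMI. Fgf15 fell from 7.05 and 6.18 CPM to 0.846 and 0.683 CPM (-3.11, adjusted p = 0.0146). The ligands Fgf5 and Fgf8 were not called (adjusted p = 0.0919 and 0.175). Fgf10, a ligand outside the list and named after its values were seen, rose from 0.845 and 0.629 CPM to 2.62 and 3.02 CPM (1.94, adjusted p = 0.00310). The receptors Fgfr1 and Fgfr2 had log2 fold changes of -0.37 and -0.02 and were not called. Both moved with run, though at a fold as small as that of Fgfr2 a small shift would meet that measure.

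The Sprouty genes, inhibitors that FGF signalling itself induces, did not move together. Spry2 rose from 36.1 and 60.7 CPM to 231.3 and 255.5 CPM (log2 fold change 2.33, SE 0.47, adjusted p = 0.0201) and Spry1 from 6.62 and 7.37 CPM to 16.8 and 18.8 CPM (1.35, adjusted p = 0.0388). Spry4 fell from 38.6 and 52.8 CPM to 17.3 and 18.3 CPM (-1.36, SE 0.27, adjusted p = 0.0201). The ERK-induced gene Dusp6 was not called, with 29.0 and 36.0 CPM in ES and 30.7 and 32.1 CPM at 9h (-0.05, SE 0.34, adjusted p = 0.943). Without ES replicate 1, ES replicate 2, 9h replicate 1 and 9h replicate 2, the pathway had 0, 1, 0 and 0 members called lower and 0 called higher in each case, and with the term for run 3 there were 0 in both directions. With only the 4 libraries in the fit, 7 were called lower and 3 higher, and with all 20 these were 2 and 1.

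Both Lefty genes, secreted inhibitors of Nodal that are also its targets, were among the largest rises in abundant genes. Lefty2 (chr1:180893108-180899103, plus strand) was at 47.0 and 34.7 CPM in ES and 424.4 and 415.0 CPM at 9h (log2 fold change 3.36, SE 0.86, adjusted p = 0.0436). Lefty1 was at 28.7 and 25.2 CPM and then 197.3 and 176.0 CPM (2.79, SE 0.45, adjusted p = 0.0110), and the share of thinned cells with a Lefty1 UMI went from 4.15% and 3.86% to 24.8% and 22.0%. The duplicates were close in both groups. Nodal itself (-0.54, adjusted p = 0.731), which moved with run, and its co-receptor Tdgf1 (0.09, adjusted p = 0.976) were not called. Of 21 tested members of the Nodal and BMP list, the Lefty genes were the 2 called higher, and Smad7, an inhibitory Smad that moved with run (-1.52), and Id4 (-2.71) were the 2 called lower, with a list median of -0.01. The shares over all tested genes were 2.95% higher and 3.99% lower, and a difference from them was not tested. Id4 had smaller shifts in the direction of its change at both 24h and 48h. Neither Lefty gene was called without any 1 of the 4 libraries, with all 20 libraries or with the term for run 3, and Lefty2 was also not called with no filter on low counts or with DESeq2. In the fit with the term for run 3, the log2 fold change of Lefty1 was 2.41 (adjusted p = 0.106) and another member, Tgfb1, was the 1 called higher. Lefty1 was higher in the run 3 library at both 24h and 48h (by 0.54 and 0.20 on the log2 scale). Within run 3, Lefty1 was at 126.1 CPM in 24h replicate 2 and 16.5 CPM in 48h replicate 2.

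The other signalling lists held 1 or 2 called members each, where 6.94% of all tested genes were called. Counts this small were not tested against that share. In the Wnt list, 2 of 17 tested members were called, both lower: Lef1 and Sp5, a direct target (3.67 and 4.24 CPM in ES, 0.0819 and 0.127 CPM at 9h, log2 fold change -5.23, adjusted p = 0.0391). Sp5 had smaller shifts in the direction of its change at both 24h and 48h. The target Axin2 had a log2 fold change of 0.77 (adjusted p = 0.0740). In the LIF and STAT3 list, 1 of 13 was called, the feedback inhibitor Socs2, which fell from 128.7 and 116.8 CPM to 50.1 and 50.6 CPM (-1.29, adjusted p = 0.0363), while Socs3 had a log2 fold change of -0.23 (adjusted p = 0.690). In the retinoic acid list 1 of 14 was called, Dhrs3, a retinal reductase (1.60, adjusted p = 0.0407).

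**Figure D4:**
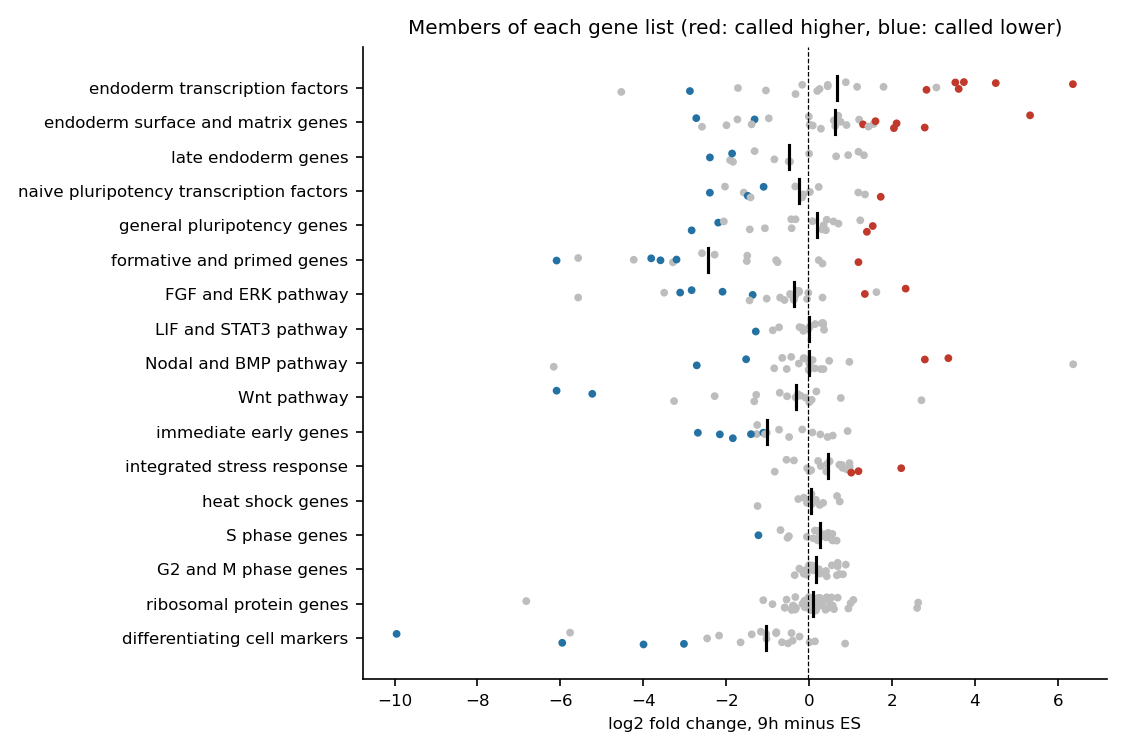
Log2 fold change (9h minus ES, horizontal axis) of the tested members of 17 gene lists, with members called higher in red, called lower in blue and not called in grey. Black bars are list medians and the dashed line is the median of all tested genes (-0.03). The formative and primed list has its median at -2.43, and the ribosomal protein genes have theirs at 0.10 with 0 of 92 called.

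Immediate early genes, which respond to mitogens and to handling of cells, leaned lower: of 17 tested, 5 were called lower (Fosl1, Ier5, Fosl2, Zfp36 and Btg2) and 0 higher, with a median of -1.02. Over all tested genes, 3.99% were called lower and 2.95% higher. Fosl1, an AP-1 subunit, was at 2.51 and 2.12 CPM in ES and 0.318 and 0.400 CPM at 9h (-2.68, adjusted p = 0.0278). It had smaller shifts in the direction of its change at both 24h and 48h. Ier5 fell from 4.15 and 2.73 CPM to 0.810 and 0.732 CPM (-2.15, adjusted p = 0.00603). Fos itself was at 2.26 and 30.5 CPM in the ES duplicates, far apart, and at 34.1 and 28.4 CPM at 9h (0.93, adjusted p = 0.739). Sorting of the 9h cells alone and run differ between the groups, and their part in these levels was not tested. Without ES replicate 1, ES replicate 2, 9h replicate 1 and 9h replicate 2, the number called lower was 0, 1, 0 and 0, and it was 0 with the term for run 3 and 2 with all 20 libraries.

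The integrated stress response, in which the factor Atf4 turns on amino acid supply genes, was higher in some members. Of 20 tested genes, 16 had a log2 fold change above 0 (median 0.46) and 3 were called higher (Chac1, Asns and Slc3a2) with 0 lower. The shares over all tested genes were 2.95% higher and 3.99% lower, and a difference from them was not tested. Chac1, a glutathione-degrading enzyme, rose from 6.34 and 8.46 CPM to 35.0 and 34.2 CPM (2.22, SE 0.50, adjusted p = 0.0285). Asns, asparagine synthetase, rose from 39.8 and 41.1 CPM to 94.5 and 90.2 CPM (1.19, SE 0.23, adjusted p = 0.0176). Slc3a2, the heavy chain of amino acid exchangers, rose from 105.0 and 113.9 CPM to 224.1 and 219.0 CPM (1.02, SE 0.15, adjusted p = 0.00785). The duplicates of each gene were close and the groups did not overlap, as in 37.3% of all tested genes with 9h higher. Atf4 was at 202.9 and 206.0 CPM in ES and 352.9 and 363.0 CPM at 9h, under the fold threshold (0.81, adjusted p = 0.0487). With the term for run 3 the number called higher was again 3. Chac1 and Slc3a2 were still called, Asns was not (0.77, adjusted p = 0.194), and another member was. Asns was higher in the run 3 library at both 24h and 48h (by 0.74 and 0.09 on the log2 scale). With all 20 libraries only Asns was called, and with any 1 of the 4 libraries left out 0 were.

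Promoters of this list were searched for TGATGNAA, the core of the amino acid response element that Atf4 binds, on both strands, in RefSeq promoters of 300 bases (GRCm38.p6). It was found in 6 of 22 promoters of the list (27.3%), in genes that include Asns and Chac1, and in 3.97% of all 32851 promoters and 2.27% of those of tested genes. Since the list was drawn up from known Atf4 targets, this describes the list and not its change at 9h. Slc7a11, with 2 matches, had a log2 fold change of 0.01 at a level of 0.282 CPM or less in each of the 4 libraries. It moved with run, though at so small a fold a small shift would meet that measure. Trib3, Nupr1 and Vldlr also had a match and were not called (log2 fold changes of 0.98, 0.79 and 0.97). Slc3a2, which was called, was not among the genes with a match. The 250 bases before the start of Asns, Chac1 and Slc7a11 are shown, with the matches in capitals.
Asns (chr6:7693210-7693459, minus strand): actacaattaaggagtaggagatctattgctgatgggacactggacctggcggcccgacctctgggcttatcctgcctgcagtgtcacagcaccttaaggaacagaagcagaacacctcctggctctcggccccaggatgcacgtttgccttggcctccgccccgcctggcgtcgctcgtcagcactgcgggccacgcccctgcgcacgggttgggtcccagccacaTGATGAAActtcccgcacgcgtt
Chac1 (chr2:119350992-119351241, plus strand): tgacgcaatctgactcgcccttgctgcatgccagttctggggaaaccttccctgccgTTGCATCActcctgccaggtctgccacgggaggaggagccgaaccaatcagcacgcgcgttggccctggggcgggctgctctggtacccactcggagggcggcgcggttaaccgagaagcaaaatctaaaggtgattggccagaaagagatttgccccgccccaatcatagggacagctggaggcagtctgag
Slc7a11 (chr3:50443614-50443863, minus strand): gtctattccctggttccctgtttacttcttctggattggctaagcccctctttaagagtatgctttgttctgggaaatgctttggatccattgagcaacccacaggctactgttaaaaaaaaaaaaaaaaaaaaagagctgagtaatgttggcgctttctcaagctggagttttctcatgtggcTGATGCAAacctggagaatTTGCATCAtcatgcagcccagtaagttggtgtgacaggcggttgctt
The GATA motif (AGATAA on either strand, with T also taken as its first and G as its last letter) were in 23.3% of 438 promoters of genes called higher, 19% of 568 promoters of genes called lower and 19.3% of promoters of tested genes. Of the endoderm genes called higher, 6 had a promoter in the table, and 0 of their 7 promoters held these letters in this window.

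Each of the housekeeping lists had 0 or 1 called gene. Among all tested genes 6.94% were called, and the difference from that share was not tested. Of 92 tested ribosomal protein genes and pseudogenes, 13 heat shock genes, 13 mitochondrially encoded genes, 23 cholesterol synthesis genes and 22 G2 and M phase genes, 0 were called, and their medians lay between -0.20 and 0.17. Of the cholesterol synthesis genes 18 of 23 were below 0, and of the ribosomal protein genes 64 of 92 were above 0. At an unadjusted p under 0.05, 4463 genes of the whole table passed, many more than were called. Of 22 S phase genes 1 was called lower, E2f8 (-1.22, adjusted p = 0.0151). Of 25 glycolysis and hypoxia genes 1 was called lower, Pdk1, a pyruvate dehydrogenase kinase (-1.44, adjusted p = 0.0176). Of 11 DNA methylation enzymes Dnmt3a alone was called, and of 3 tested Y-linked genes and the 1 tested gene of the 2-cell-like state 0 were. Members of the ribosomal list with wide gaps, picked after their values were seen, were Rps2-ps6 and Rpl6l. Rps2-ps6 was at 138.6 and 204.5 CPM in ES and 1.68 and 1.35 CPM at 9h, and Rpl6l at 41.7 and 113.6 CPM and then 514.3 and 449.0 CPM, and both moved with run.

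Cells of other kinds were counted by their markers. Over all tested genes, 2.95% were called higher and 3.99% lower, and the marker counts were not tested against these shares. Of 15 fibroblast markers, 12 passed the filter and 2 were called lower (Tagln and Col1a2), and their summed level was 101.0 and 23.4 CPM in ES and 5.54 and 5.57 CPM at 9h. Of 22 markers of spontaneously differentiating cells, 4 were called lower (Acta2, Tagln, Gata3 and Cdx2), 0 were called higher and 19 lay below 0. Their summed level was 1507 CPM in ES replicate 1, 676.2 CPM in ES replicate 2 and 673.9 and 675.3 CPM at 9h, so the sum set only ES replicate 1 apart. The called members were higher in ES replicate 2 than at 9h as well: Tagln was at 87.6 and 19.6 CPM in ES and 0.837 and 0.888 CPM at 9h. Acta2, smooth muscle actin, was at 37.3 and 2.96 CPM in ES and 0.0182 and 0.0195 CPM at 9h (adjusted p = 0.0280). It rested on 4497 UMIs in ES and 4 UMIs at 9h, too few for a fold, and moved with run, as did Tagln. The fibroblast genes Lum, Dcn and Mgp were too low to be tested. Leaving out the cells low in pluripotency markers from each library of the fit, Acta2 and Col1a2 were no longer called, but 1158 genes were called in all (514 higher, 644 lower). This cut also took 4572 of 5912 and 4450 of 6787 cells from the iXEN duplicates, which share the fit. Its effect through the iXEN libraries was not tested. The endoderm transcription factors called higher were then 6 as before, and the endoderm surface and matrix genes 9.

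Among the called genes that reached 50 CPM, the largest changes that did not move with run included genes outside these lists. Calcoco2, a receptor for selective autophagy, rose from 5.02 and 2.04 CPM to 69.5 and 67.4 CPM (4.28, SE 0.41, adjusted p = 0.00232). Shkbp1, an adaptor that binds the endocytic protein Sh3kbp1, was at 23.8 and 23.4 CPM in ES and 147.1 and 144.2 CPM at 9h (2.63, SE 0.18, adjusted p = 6.17e-04). The connexin gene Gjb5, the histone chaperone gene Spty2d1, Lrpap1, a chaperone of lipoprotein receptors, and the ubiquitin ligase subunit gene Fbxo6 had log2 fold changes of 2.03 to 2.18. Without 9h replicate 1, of these 6 genes only Calcoco2 and Shkbp1 were still called, and the same held with the term for run 3.

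Of the abundant genes that fell, Dennd5b, Cald1, Stx3, Mt1, Pcgf3, Plk4, AY036118 and Gm26917 stood beside Fgf4 and Gbx2, with log2 fold changes of -2.43 to -1.86. The measure of run did not mark these genes, but Dennd5b, Stx3, Mt1, Pcgf3 and Plk4 were lower in the run 3 library at both 24h and 48h, by -0.77 and -0.76 on the log2 scale for Mt1. Mt1, a metallothionein, was the most abundant of them, at 1390 and 1844 CPM in ES and 326.5 and 344.2 CPM at 9h (-2.27, adjusted p = 0.0475). Its call was lost in fits that included RLE normalization, the replicate block, no filter on low counts and all 20 libraries. The call was also lost with the cells low in pluripotency markers left out. No gene named in this paragraph was among the 6 lower genes called under each of the 14 alternatives. Plk4, the kinase of centriole duplication, fell from 219.7 and 145.7 CPM to 46.3 and 51.9 CPM (-1.90, adjusted p = 0.0120). Gm26917, annotated as a long noncoding RNA, fell from 808.1 and 529.5 CPM to 204.2 and 165.2 CPM (-1.86, adjusted p = 0.00407). It lies at chr17:39843013-39846341, beside AY036118 at chr17:39847113-39848035. Which RNA the UMIs of these neighbours come from was not tested, so their levels may not be those of regulated noncoding genes. Gm29666 (94.2 and 57.8 CPM in ES, 1.57 and 1.93 CPM at 9h, -5.44) and Platr13 (-2.46), also among the abundant genes with the lowest changes, moved with run: at 24h and 48h, Gm29666 was at 30.2 and 14.7 CPM in the run 2 libraries and 2.38 and 2.43 CPM in those of run 3.

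**Figure D5:**
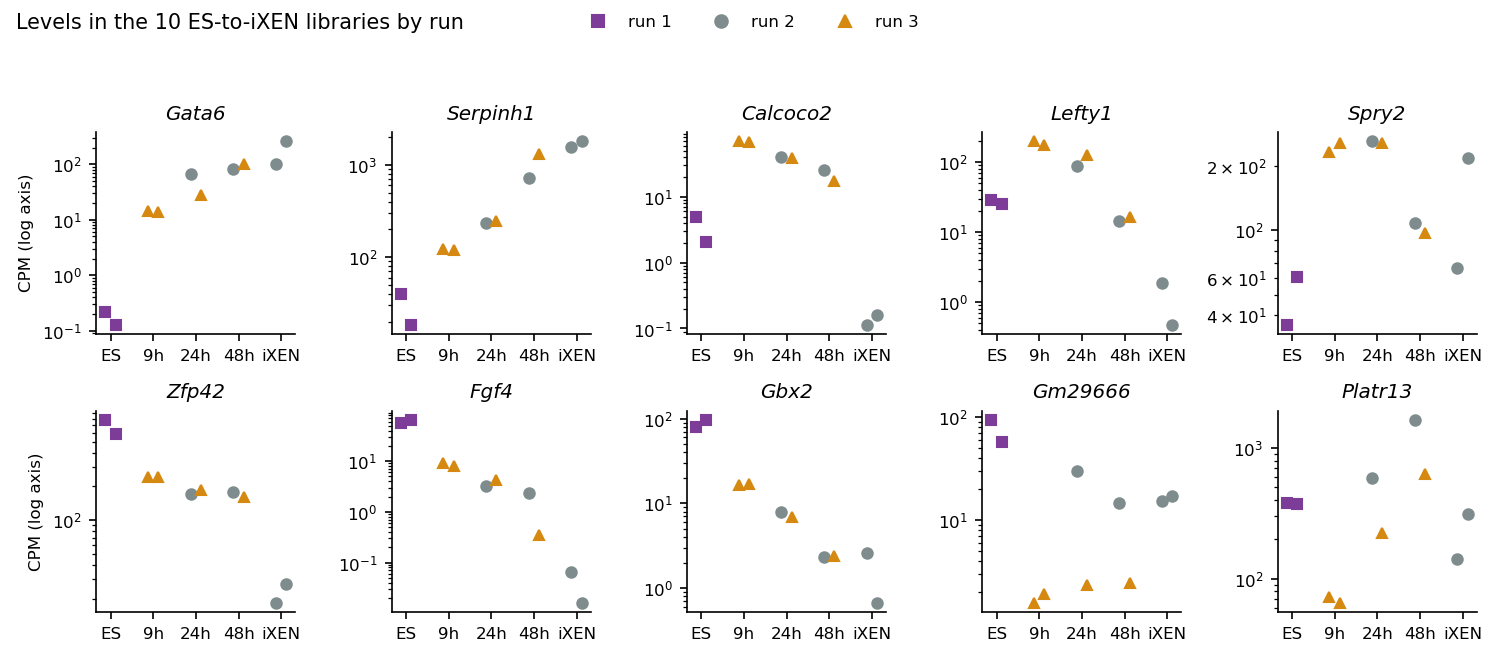
Level (CPM, log axes that differ between panels) of 10 genes in the 10 libraries of the conversion, by condition, with the symbol giving the run. At 24h and 48h the duplicates are of run 2 and run 3: for Calcoco2 at 24h they lie at 40.7 and 38.9 CPM, and for Gm29666 and Platr13 the run 3 library is the lower at both times.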

How the data were processed

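Single-cell 3′ RNA libraries were sequenced from each group in technical duplicate. The authors deposited raw UMI counts per cell and gene, made with SEQC on GRCm38 (mm10 per the labels), which had already dropped cells rich in mitochondrial RNA. From these, UMIs were summed per library over cells with at least 500 genes. Sums of 10 libraries were fitted with edgeR 4.0.16 in R 4.3.3 (filterByExpr, TMM, robust quasi-likelihood test, Benjamini-Hochberg over 15723 genes), without a replicate block. Alternatives were a fit of 4 or of 20 libraries, RLE, no filter, a replicate block, a term for run 3, a minimum of 1000 genes, cells low in pluripotency markers (under 0.02% of UMIs) left out, each library left out and DESeq2 1.42.0. The crossed block was added after the data were seen. Symbols were placed with GENCODE vM21 (21978 of 22936). On simulated counts for this comparison (15485 genes), 88% of 100 genes changed by 1.5 on the log2 scale and 97% of 100 changed by 3 were called, with 11 false calls. The changed genes were drawn only from those above a minimum level, and no shift between runs was simulated. These values are therefore not the error rates of the real comparison.

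Named genes were Gata4 and Gata6, the called members of each list (at most the 4 with the largest change per direction), uncalled members of the endoderm and pluripotency lists, and the 10 highest and 10 lowest changes among called genes with a mean of at least 50 CPM in ES or 9h, with and without those that move with run. Other genes named in the text, such as Btg2, Otx2, Fgf5, Fgf8, Fgf10, Dusp6, Fgfr1, Fgfr2, Nodal, Tgfb1, Tdgf1, Axin2, Socs3, Fos, Atf4, Slc7a11, Rps2-ps6 and Rpl6l, were chosen after their values were seen. The gene lists and members were chosen with earlier results of these data known. Doublets were not removed. A few genes are not reported here.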

Additional observations from a re-analysis of the deposited data

How the results depend on the processing

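Against 1091 called genes (464 higher, 627 lower), a fit of only the 4 libraries called 2477 (892 and 1585), DESeq2 1594 (703 higher), all 20 libraries 733 (294 higher), and a term for run 3 called 156 (93 and 63). Leaving out 1 library left 30 to 258 calls, 24 to 88 higher and 6 to 170 lower. The cause was not tested. The share of called genes that moved with run, 7.79%, was 10.6% with 4 libraries, 10.3% with all 20, 11.2% with DESeq2, 46.7% with shifts of any size counted (chosen after seeing the data) and 4.9% to 6.67% without 1 library. The replicate numbers did not pair ES with 9h (r = -0.19 across 6515 genes of the duplicates' deviations), and a replicate block called 1210 genes, with 11.7% moving with run. A crossed replicate block, chosen after seeing the data, called 1233, with 11.9%. With the term for run 3 the sign turned for Klf4 (0.49), Nodal (0.57), Fgfr1 (0.20), Fgfr2 (0.70), Dusp6 (0.31), Rps2-ps6 (0.76) and Slc7a11 (-1.64), none of them called. Slc7a11 was at -0.0058 with 4 libraries and -0.0134 with the crossed replicate block. Fgfr2 was at 0.0259 with RLE normalization, 0.0025 in cells with 1000 or more genes, 0.0427 without the cells low in pluripotency markers and 0.0287 with DESeq2. Without 1 library, Pou5f1 ranged from -0.17 to 0.69, Fgfr2 from -0.13 to 0.12, Dusp6 from -0.19 to 0.12 and Slc7a11 from -0.54 to 0.40. Thinned to 4000 UMIs in place of 2000, the mean shares of cells were 5.18% for Gata6 at 9h, 0.0136% and 0.633% for Pdgfra in ES and at 9h, 7.23% and 35.6% for Lefty1, 21.3% and 3.01% for Fgf4 and 82.5% and 85.2% for Pou5f1.

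The duplicates are technical, run and induction cannot be told apart, and a level of 3 UMIs or fewer in a library is at its floor, as for Acta2 at 9h.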

Other observations

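The 29 genes called under all 14 alternatives include several outside the lists, and those named here were chosen after their values were seen. Sdc4, a heparan sulfate proteoglycan of the cell surface, was at 37.3 and 34.7 CPM in ES and 117.7 and 118.8 CPM at 9h (log2 fold change 1.72). Kdelr3, a receptor that returns chaperones to the endoplasmic reticulum, was at 27.4 and 24.9 CPM and then 100.7 and 94.1 CPM (1.90). Apobec2, a member of the cytidine deaminase family, was at 1.88 and 2.05 CPM and then 23.4 and 22.7 CPM (3.55).

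Among the 6 that were lower, Esrp1, an epithelial splicing regulator, was at 6.89 and 12.5 CPM in ES and 0.791 and 0.879 CPM at 9h (-3.54). The metalloprotease gene Adam19 was at 8.70 and 8.66 CPM and then 0.619 and 0.683 CPM (-3.73). Mcc was at 10.4 and 10.7 CPM and then 0.682 and 0.556 CPM (-4.09). In Sdc4, Kdelr3, Apobec2, Esrp1, Adam19 and Mcc the duplicates were closer to each other than to the other group. Among all tested genes, the groups did not overlap in 37.3% with 9h higher and in 38.8% with 9h lower. None of the genes named here moved with run by the measure of the report, though Sdc4, Kdelr3, Esrp1 and Mcc had smaller shifts in their direction at both 24h and 48h.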
